A study of Mus musculus with 6 samples.

Results

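Mast cells and basophils are granulocytes armed with IgE, and the genes described here encode their granule proteases and IgE receptor: Cpa3, Cma1, Mcpt1, Mcpt4, Mcpt8, Tpsab1, Tpsb2, Prss34, Fcer1a and Ms4a2. Every probe set whose only annotated gene symbol was one of these 10 names was taken, which gave 11 probe sets for 9 genes, among 45101 probe sets and 18193 singly named genes on the array. Prss34 is named only. The RNA came from mouse bone marrow: cells lacking lineage markers and bearing Sca1, CD150 and CD48 were sorted, and the study calls them committed progenitors. The dKO mice carried MxCre together with floxed c-myc and N-myc (MxCre c-myc f2 N-myc f2), and the control mice carried the floxed alleles alone (c-myc f2 N-myc f2). All mice were 8 weeks old, of mixed background, and received 2 daily injections of pI-pC, an interferon inducer that switches MxCre on, and cells were taken 3 days after the second. There were 3 arrays per group, each from a pool of 3 mice for dKO and of 2 mice for control. The Cre transgene was present in dKO mice alone, so its own effect and that of losing both genes cannot be told apart.

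Both lineages arise in bone marrow from myeloid progenitors, and their first protease transcripts appear well before granules mature. Carboxypeptidase A3, the chymases and the tryptases are stored in granules with heparin-like proteoglycan and are released when antigen cross-links IgE. The receptor that holds IgE has a binding alpha chain (Fcer1a), an amplifying beta chain (Ms4a2) and a signalling gamma chain (Fcer1g), which other receptors share. In mice, Cma1 and Mcpt4 are proteases of connective tissue mast cells, Mcpt1 is one of mucosal mast cells, and Mcpt8 and Prss34 are used as basophil markers.

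The arrays gave RMA intensities on a log2 scale, and 1 unit is a doubling. Myc stood at 7.99, 7.87 and 7.44 in the dKO arrays, against 10.79, 10.95 and 10.47 in the control arrays, and the Mycn probe set 1417155_at at 4.42, 3.28 and 4.47 in dKO, against 9.57, 8.93 and 9.48 in control. The other Mycn probe sets did not pass the test, and the labels do not place any of them in the deleted exons. Of the 3 gate genes 2 were measured, and Ly6a, which encodes Sca1, was not. Cd48 (11.27 to 11.69 in dKO, 11.09 to 11.32 in control) and Slamf1, which encodes CD150 (8.40 to 9.58 in dKO, 7.74 to 8.74 in control), gave signal in all arrays. Control 1 is labelled as long-term stem cells in its tissue field, although its gate and title are those of the other arrays. Xist signal stood apart in dKO 1 (10.50) and control 1 (9.10), against 5.03 to 5.86 in the other arrays at probe set 1427262_at, and results are also given without these 2 pools where a call depends on them. The cells were profiled in bulk, so a change in the number of cells that carry a transcript and a change in transcript per cell cannot be told apart.

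To show what these genes share and where they differ upstream, RefSeq promoter sequence (build GRCm38.p6) is given for the 4 genes that rose in dKO. RefSeq windows were matched by symbol for 7 of the 9 measured genes. Each line reads 5′ to 3′ on the strand of the gene and holds the 250 bases before its annotated start, with the letters GATAA, or their reverse complement TTATC, in capitals. GATAA is the core of the element that GATA factors bind.
Cma1 (chr14:55944676-55944925, minus strand): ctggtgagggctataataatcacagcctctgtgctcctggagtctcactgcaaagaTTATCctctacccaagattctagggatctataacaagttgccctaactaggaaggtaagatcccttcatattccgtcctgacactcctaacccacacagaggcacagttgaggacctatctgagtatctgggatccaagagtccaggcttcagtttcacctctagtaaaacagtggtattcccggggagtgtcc
Mcpt8 (chr14:56085198-56085447, minus strand): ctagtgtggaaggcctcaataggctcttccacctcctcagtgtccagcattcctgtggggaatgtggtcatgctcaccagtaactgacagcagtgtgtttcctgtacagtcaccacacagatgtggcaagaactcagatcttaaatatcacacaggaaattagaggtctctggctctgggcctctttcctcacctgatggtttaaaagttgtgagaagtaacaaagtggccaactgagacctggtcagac
Fcer1a (chr1:173227230-173227479, minus strand): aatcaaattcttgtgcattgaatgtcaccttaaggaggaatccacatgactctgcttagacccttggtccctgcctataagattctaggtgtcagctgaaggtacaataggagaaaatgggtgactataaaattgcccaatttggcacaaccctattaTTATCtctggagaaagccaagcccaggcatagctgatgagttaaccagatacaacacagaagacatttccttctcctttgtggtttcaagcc
Cpa3 (chr3:20242182-20242431, minus strand): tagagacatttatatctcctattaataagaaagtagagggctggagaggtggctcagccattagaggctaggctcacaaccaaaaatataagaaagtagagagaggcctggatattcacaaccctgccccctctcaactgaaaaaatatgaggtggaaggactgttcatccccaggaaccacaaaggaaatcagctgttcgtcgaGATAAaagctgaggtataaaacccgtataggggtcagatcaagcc
The promoters of Mcpt1 and Mcpt4, chymase family genes of the same set that did not pass the test, are given for comparison over the 120 bases before their starts.
Mcpt1 (chr14:56017844-56017963, plus strand): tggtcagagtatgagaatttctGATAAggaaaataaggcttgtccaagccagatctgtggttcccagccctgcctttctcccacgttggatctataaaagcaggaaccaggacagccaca
Mcpt4 (chr14:56062311-56062430, minus strand): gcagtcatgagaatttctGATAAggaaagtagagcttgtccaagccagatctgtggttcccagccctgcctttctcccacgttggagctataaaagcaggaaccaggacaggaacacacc
Searched on both strands of the 250-base window, GATAA was found before 6 of the 7 genes, all except Mcpt8, and before 22.6% of 32851 RefSeq promoters of the same length. It began 45 bases before the start of Cpa3, 92 before Fcer1a, 194 before Cma1, 98 before Mcpt1 and 102 before Mcpt4, and Ms4a2 held 3 copies. CACGTG, the E-box that MYC with its partner MAX binds best, was found in 0 of the 7 windows and in 6.02% of all promoters. The looser E-box CANNTG, which contains CACGTG as a special case, was found in 4 of the 7, namely in Cpa3, Cma1, Fcer1a and Mcpt8, and in 66.2% of all promoters. Mcpt1 and Mcpt4 shared 81.0% of aligned positions over the window and an unbroken run of 53 bases. Cma1 and Mcpt8 shared 47.3% with each other and 48.5% to 50.7% with Mcpt1 and Mcpt4. The alignments allowed gaps, and no unrelated promoters were aligned as a background. Shares of 47.3% to 50.7% therefore cannot be read as relatedness. These matches describe letters in a window and nothing about what binds there.

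In dKO progenitors, 4 of the 9 measured genes rose and 0 fell: Cma1 (5.77-fold), Mcpt8 (5.35-fold), Fcer1a (4.71-fold) and Cpa3 (3.66-fold). These transcripts encode a chymase, a basophil protease, the IgE-binding chain of the receptor and carboxypeptidase A3. The test was limma's moderated test over 45037 probe sets with Benjamini-Hochberg adjustment and a threshold of 0.05, each gene being read by its brightest probe set. By the same rule 2.45% of the 18193 genes rose and 2.03% fell. Counted by probe set, 4 of the 11 rose and 0 fell, beside 1.83% and 1.78% of all 45037 probe sets. The median log2 fold change was 1.05 over the 9 genes and 0.05 over all genes. In 7 of the 9 genes every dKO array lay above every control array, a pattern that 12.7% of all genes showed (8 of the 11 probe sets, beside 10.7% of all). The number that rose was 2 without control 1, without control 2 or without both pools with Xist signal (Cma1 and Mcpt8 each time), and 3 to 5 without dKO 1, dKO 2, dKO 3 or control 3.

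**Figure D1:**
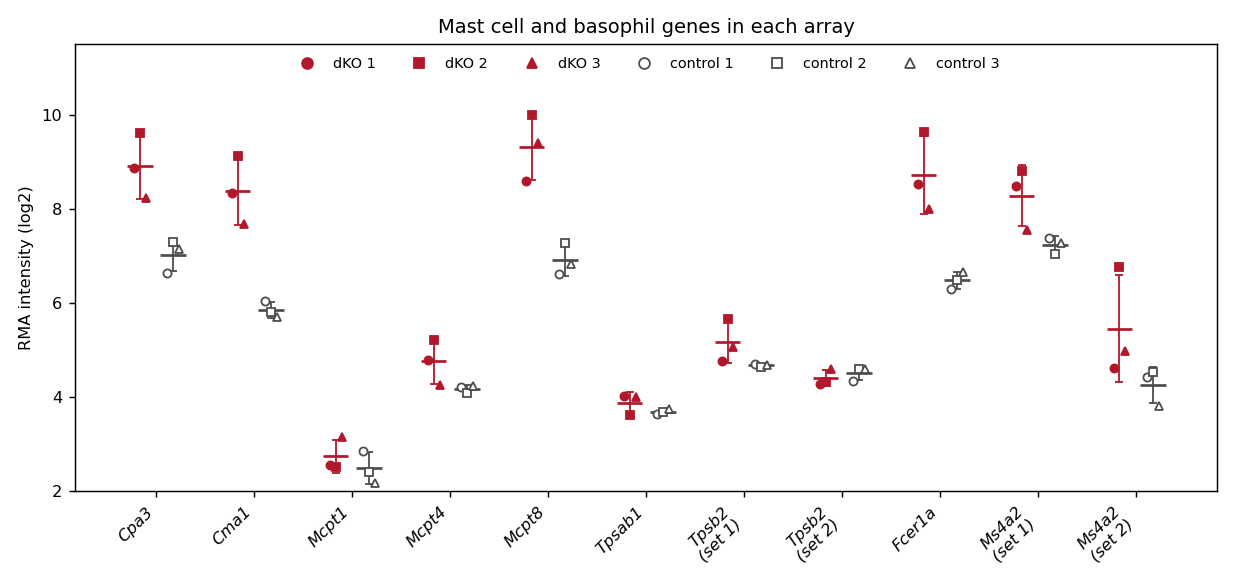
RMA intensity (log2, vertical axis) of each probe set in the 3 dKO arrays (filled red) and the 3 control arrays (open grey), with marker shapes for replicate numbers, and lines and bars for the mean ± SD. Cma1, Mcpt8, Fcer1a and Cpa3 separate clearly, for example 7.68 to 9.13 in dKO against 5.70 to 6.04 in control for Cma1, while Mcpt1 and Tpsab1 overlap.

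The transcript of Cpa3 rose. It encodes carboxypeptidase A3, the metalloprotease that trims C-terminal residues, and is an early marker of the mast cell lineage. Its probe set 1448730_at gave 8.86, 9.61 and 8.23 in dKO 1, 2 and 3, against 6.64, 7.29 and 7.14 in control 1, 2 and 3. The lowest dKO pool stood 0.93 above the highest control pool. Cpa3 averaged 8.90 ± 0.69 in dKO and 7.02 ± 0.34 in control (SD, n = 3 each), a log2 fold change of 1.87 ± 0.34 (SE; limma adjusted p = 0.0227). The size stayed between 1.52 and 2.21 with each array left out. The call was lost without dKO 1 (1.89, adjusted p = 0.0698), control 1 (1.68, 0.0716), control 2 (2.01, 0.0648) or control 3 (1.93, 0.0692). It was also lost when dKO 1 and control 1, the pools with Xist signal, were both left out (1.70, 0.138).

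Among the 4 genes of the chymase family, 2 rose. Cma1, a mast cell chymase, had 8.33, 9.13 and 7.68 in dKO, against 6.04, 5.82 and 5.70 in control (probe set 1449456_a_at). The control pools were tight, with a range of 0.34, and the dKO pools spread over 1.46. Its log2 fold change was 2.53 ± 0.33 (SE; limma adjusted p = 0.00578). Over all genes, 44 had a log2 fold change as high as that of Cma1 or higher, Cma1 included. Mcpt8, the basophil protease, had 8.59, 9.99 and 9.39 in dKO, against 6.61, 7.27 and 6.84 in control (probe set 1449965_at). All dKO pools were again above all control pools, with a gap of 1.33. Mcpt8 averaged 9.32 ± 0.70 in dKO and 6.90 ± 0.34 in control (SD, n = 3 each), and its log2 fold change was 2.42 ± 0.34 (limma adjusted p = 0.00783). The calls of Cma1 and Mcpt8 held with each single array left out and without both pools with Xist signal, with adjusted p up to 0.0385 for Cma1 and 0.0335 for Mcpt8.

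Mcpt4 and Mcpt1 gave dim signal, below the array medians of 5.91 to 5.94, and RMA compresses differences in that range. Mcpt4, the chymase of connective tissue mast cells, had 4.80, 5.21 and 4.27 in dKO, against 4.21, 4.09 and 4.23 in control. The groups were apart by 0.03 only, and the log2 fold change of 0.58 ± 0.24 did not pass (limma adjusted p = 0.289). Mcpt1, the chymase of mucosal mast cells, had 2.57, 2.51 and 3.15 in dKO, against 2.86, 2.42 and 2.19 in control, with overlapping groups (0.26 ± 0.25, adjusted p = 0.713).

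The tryptases, trypsin-like proteases that assemble as tetramers on heparin, were dim in both groups, and 0 of 2 measured genes passed in limma (0 also at an unadjusted p under 0.05). Tpsb2 was read by a pair of probe sets. The brighter, 1422180_a_at, had 4.78, 5.66 and 5.07 in dKO, against 4.70, 4.65 and 4.68 in control, a log2 fold change of 0.49 ± 0.24 (limma adjusted p = 0.362). The dKO pools lay above the control pools by 0.08, with dKO 2 highest. The other, 1451802_at, had 4.29, 4.33 and 4.60 in dKO, against 4.35, 4.61 and 4.59 in control, and differed by -0.11 ± 0.18 (adjusted p = 0.849), so the probe sets of Tpsb2 differed in sign. Tpsab1 had 4.02, 3.63 and 4.0 in dKO, against 3.65, 3.69 and 3.75 in control, with dKO 2 below all controls (0.19 ± 0.18, adjusted p = 0.711). RefSeq annotates Tpsab1 as a transcribed pseudogene in its reference mouse strain. Tpsab1 and Tpsb2 are close relatives, and their probe sets are uncertain as measures of single genes.

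Of the IgE receptor chains, the alpha chain rose and the beta chain did not pass. Fcer1a had 8.53, 9.63 and 7.99 in dKO, against 6.29, 6.49 and 6.66 in control (probe set 1421775_at). The groups were separated by 1.33, and dKO 2 was highest. Fcer1a averaged 8.72 ± 0.83 in dKO and 6.48 ± 0.18 in control (SD, n = 3 each), a log2 fold change of 2.24 ± 0.37 (limma adjusted p = 0.0156). The call was lost without control 1 (2.14, adjusted p = 0.0515), control 2 (2.24, 0.0663) or both pools with Xist signal (2.24, 0.0869). Ms4a2 had 8.48, 8.81 and 7.56 in dKO, against 7.39, 7.04 and 7.28 in control at its brighter probe set, 1443264_at. The pools of dKO 1 and dKO 2 were well above the controls, and dKO 3 exceeded the highest control by 0.17. The log2 fold change of 1.05 ± 0.31 did not pass (limma adjusted p = 0.121), but it was 1.41 with adjusted p = 0.0162 without dKO 3. The second Ms4a2 probe set, 1421475_at, had 4.63, 6.76 and 4.98 in dKO, against 4.42, 4.53 and 3.82 in control (1.20 ± 0.50, adjusted p = 0.285). Fcer1g, the gamma chain, had 8.95, 9.09 and 9.04 in dKO, against 8.53, 9.48 and 8.92 in control (0.05 ± 0.25, adjusted p = 0.954).

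The change of the alpha chain was also set against those of the other chains, a comparison made after the values were seen. Ms4a2 was read here by its brighter probe set 1443264_at alone, and no such difference was taken with 1421475_at. The log2 difference Fcer1a minus Ms4a2 averaged 0.43 ± 0.38 in dKO and -0.76 ± 0.30 in control (SD, n = 3 each), so it was greater in dKO by 1.19. The difference Fcer1a minus Fcer1g averaged -0.31 ± 0.80 in dKO and -2.50 ± 0.43 in control, greater in dKO by 2.18. In both, the 3 dKO arrays lay above the 3 control arrays. An exact permutation test gave p = 0.1 for each difference, the smallest p it can give with 3 arrays per group. The chains were also chosen by their values, so these differences are a description only.

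**Figure D2:**
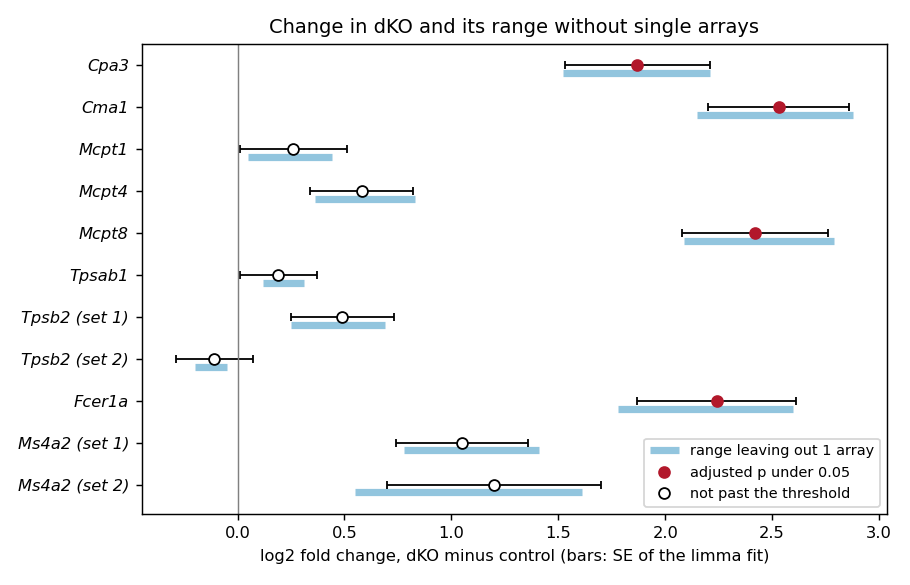
log2 fold change, dKO minus control (horizontal axis), of each probe set with the SE of the limma fit (black bars), and the range obtained by leaving out each array in turn (blue). Cma1 stays between 2.15 and 2.88 and Mcpt8 between 2.09 and 2.79, whereas the Tpsb2 probe sets lie at 0.49 and -0.11. Set 1 is the brighter probe set of a gene.

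The dKO pools differed among themselves more than the control pools did at the genes that rose. dKO 2 was the highest dKO array for 7 of the 9 genes, compared with 26.0% of all genes. dKO 3 was highest for 1 of the 9 genes and for 45.7% of all genes. The arrays were not scaled alike above their medians: the upper quartile was 7.51 in dKO 3 and 7.62 to 7.7 in the other arrays. The part of this in the order of the dKO arrays was not tested. For Cpa3, Cma1, Fcer1a, Mcpt4 and the brighter Ms4a2 probe set the order was dKO 2, dKO 1, dKO 3. Mcpt8 broke that order, with dKO 1 lowest at 8.59, and it was not alone. dKO 1 was also lowest at both Tpsb2 probe sets and at the Ms4a2 probe set 1421475_at. At Mcpt1 and Tpsab1 dKO 2 was lowest. The granulocyte genes Mpo (7.67, 10.98 and 10.22 in dKO 1, 2 and 3) and Ctsg (6.95, 9.11 and 8.30) were also lowest in dKO 1, and their part in the Mcpt8 values was not tested. Without dKO 2 the fold changes were 2.15 for Cma1, 2.09 for Mcpt8, 1.78 for Fcer1a and 1.52 for Cpa3 on the log2 scale, and all 4 calls held.

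Cma1, Mcpt1, Mcpt4 and Mcpt8 lie in 1 locus on chromosome 14 that also holds Ctsg and a row of granzyme genes, proteases of cytotoxic lymphocytes. In the RefSeq annotation the locus runs from Cma1 to Gzmb over 15 protein-coding genes, of which 13 were measured, 4 rose and 0 fell. The genes that rose were not all neighbours, although Gzmc and Gzmb are adjacent. Apart from Ctsg, the measured genes between them averaged 2.15 to 4.76 in dKO and 1.91 to 4.18 in control. These means lie below the array medians of 5.91 to 5.94, and Cma2 and Mcpt9 were not measured. A gap in the rise along the locus therefore cannot be read from such dim genes. Cma1 at one end rose, Mcpt1 and Mcpt2, the next measured genes, differed by 0.26 ± 0.25 and 0.20 ± 0.20, and Mcpt8 rose further along. Next to Mcpt8, Ctsg, the cathepsin G gene of neutrophil granules, was at 6.95 to 9.11 in dKO and 8.98 to 10.50 in control (-1.71 ± 0.55, limma adjusted p = 0.156), opposite in sign. Gzme, Gzmd, Gzmg, Gzmn and Gzmf differed by 0.01 to 0.47 and did not pass. At the far end Gzmc rose by 3.85 ± 0.17 and Gzmb by 5.54 ± 0.30 (adjusted p = 9.01e-05 and 0.000171). The tryptase locus on chromosome 17 gave no call among 5 measured genes, with log2 fold changes from 0.19 to 0.49.

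**Figure D3:**
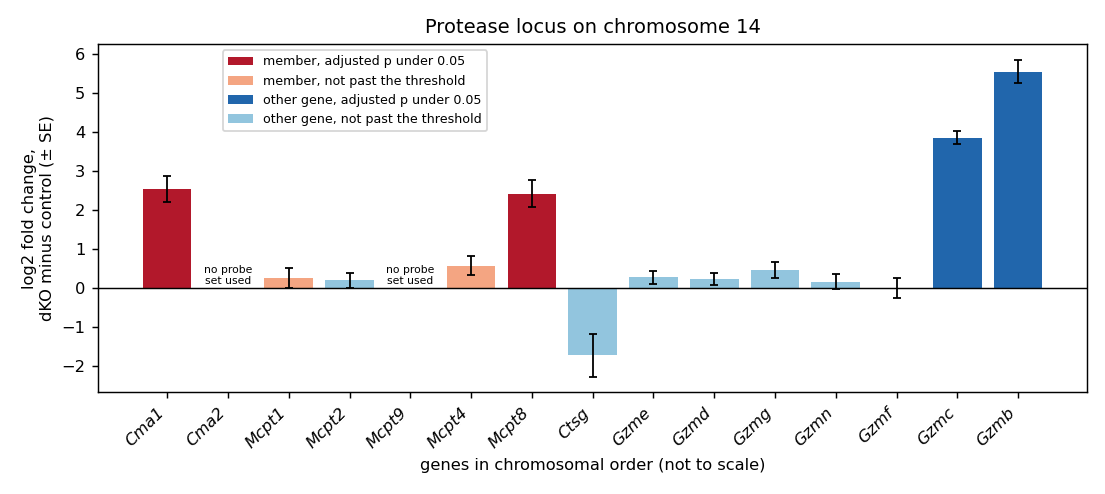
log2 fold change, dKO minus control (vertical axis, bars ± SE), of the protein-coding genes of the chromosome 14 protease locus in chromosomal order, not to scale. Cma1 (2.53) and Mcpt8 (2.42) stand out among the mast cell and basophil proteases, Gzmc (3.85) and Gzmb (5.54) at the other end, and Ctsg (-1.71) points down without passing the test.

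Genes that act below the IgE receptor moved in part. Of 19 measured signalling genes 3 rose and 0 fell, with a median log2 fold change of 0.34. All 3 encode adaptor proteins that gather signalling enzymes at the membrane. Lcp2, which encodes SLP-76, had 10.02, 9.67 and 9.72 in dKO, against 8.34, 8.32 and 8.38 in control, with no overlap and little spread. Its log2 fold change was 1.46 ± 0.17 (limma adjusted p = 0.00365), and the call held with each array left out. Lat2 rose by 1.25 ± 0.24 (adjusted p = 0.0296) and lost the call without dKO 2, dKO 3, control 1 or control 3 (adjusted p up to 0.103). Lat rose by 0.80 ± 0.17 (adjusted p = 0.0451) and lost it without any single array (up to 0.172). Without both pools with Xist signal, Lcp2 alone of the 3 passed. The kinase gene Syk (-0.04 ± 0.18) and the scaffold gene Gab2 (0.65 ± 0.21) did not pass. Lcp2 and Lat also serve T cells and platelets, whose markers are given further on.

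Among 18 other measured genes of mast cells and basophils 5 rose and 0 fell, with a median of 0.48. Il6, a cytokine made by many activated cells, had 8.25, 8.04 and 6.13 in dKO, against 4.65, 3.31 and 3.33 in control, the widest change of the list (3.71 ± 0.57, limma adjusted p = 0.0112). Gata2, a transcription factor that mast cells, basophils and stem cells need, had 11.57, 11.83 and 11.87 in dKO, against 10.79, 9.92 and 10.54 in control (1.34 ± 0.24, adjusted p = 0.0231). Cd200r3, a surface receptor of basophils and mast cells, was dim but rose by 1.16 ± 0.22 (adjusted p = 0.0251), with 4.81, 4.59 and 4.07 in dKO, against 3.31, 3.32 and 3.38 in control. Ms4a3, a gene of granulocyte and basophil progenitors, rose by 1.29 ± 0.28 (adjusted p = 0.0439), and Cyp11a1, a steroid-synthesis enzyme, by 0.92 ± 0.21 (adjusted p = 0.0487). Without single arrays the number that rose ranged from 0 (without dKO 2 or control 2) to 4 (without dKO 3), with 1 without control 3 and 2 without dKO 1, control 1 or both pools with Xist signal, and it was 3 with dim probe sets filtered out. For Il6 the adjusted p was 0.0501 without dKO 2 and 0.0561 without control 2. Gata2, Cd200r3, Ms4a3 and Cyp11a1 each kept theirs in 1 of the 6 fits without an array.

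The other genes of this list did not pass. At an unadjusted p under 0.05 in limma, 9 of the 18 were higher, the 5 that passed included, and 1 was lower. The share of all genes at that unadjusted p was not counted, so these counts have no background beside them. Every dKO array lay above every control array for 9 of the 18, beside 12.7% of all genes. Besides the 5 that passed, the genes higher at that unadjusted p were Rab27b (0.91 ± 0.26), Srgn (0.53 ± 0.16), Il13 (0.52 ± 0.20) and Il4 (0.45 ± 0.18). The lower gene was Itgb7 (-0.59 ± 0.22). The genes that follow were named after their values were seen. Kit, the stem cell factor receptor that mast cells retain, had 9.14, 9.07 and 8.66 in dKO, against 9.31, 9.10 and 9.32 in control (-0.29 ± 0.19, limma adjusted p = 0.548). Hdc, the histamine-forming enzyme, had 5.86, 7.21 and 6.19 in dKO, against 6.01, 6.53 and 6.29 in control (0.15 ± 0.34), again highest in dKO 2. Slc18a2, the vesicular monoamine transporter, differed by 0.11 ± 0.19, and Mitf, a mast cell transcription factor, by -0.65 ± 0.31 (adjusted p = 0.362). Mrgprb1, a receptor gene of connective tissue mast cells, was at 2.00 to 2.17 in dKO and 1.91 to 2.05 in control, near the lowest value on the arrays (1.53). Enpp3, a surface enzyme of basophils and mast cells, was at 2.69 to 3.20 in dKO and 2.93 to 2.96 in control. Mrgprb1, Enpp3 and Mcpt1 were thus near the bottom of the scale in both groups.

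Growth receptors and transcription factors of these lineages were read next. Of 9 receptor genes 2 rose and 0 fell, with a median log2 fold change of 0.27. They were the signalling subunits of the interleukin 3 receptor family, Csf2rb2 with 9.61, 10.29 and 9.21 in dKO, against 7.90, 8.30 and 8.33 in control (1.52 ± 0.28, limma adjusted p = 0.0237), and Csf2rb (0.83 ± 0.19, adjusted p = 0.0489). Csf2rb2 lost its call without dKO 1 or any control (adjusted p up to 0.0781), and Csf2rb without any single array (up to 0.179), and 0 of the 9 passed without both pools with Xist signal. Il3ra, the ligand-binding chain, differed by -0.04 ± 0.26. Of 16 transcription factor genes 3 rose and 0 fell, with a median of 0.10. Bhlhe40 had 8.92, 9.31 and 8.42 in dKO, against 6.54, 6.79 and 5.99 in control (2.44 ± 0.28, adjusted p = 0.00345), a call that held without each array. Tal1, a factor of blood stem, mast and erythroid cells, rose by 1.13 ± 0.18 (adjusted p = 0.0125), lost without control 1 (0.0511), control 3 (0.065) or both pools with Xist signal (0.14), and Gata2 was the third. Gata1 (0.74 ± 0.20, adjusted p = 0.0885) and Cebpa (-1.27 ± 0.50, adjusted p = 0.25) did not pass.

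Genes of the granule matrix and of granule release gave 2 of 21 higher and 0 lower, with a median of 0.27. Chst11, a chondroitin sulfotransferase, rose by 1.17 ± 0.20 (limma adjusted p = 0.0193), and Snap23, a membrane fusion protein of mast cell exocytosis, by 1.08 ± 0.20 (adjusted p = 0.0246). Chst11 lost its call without dKO 2, control 1 or control 2 (up to 0.0905), and Snap23 in 5 of 6 fits, all except that without dKO 3 (up to 0.107). Neither passed without both pools with Xist signal (0.094 and 0.199). The number that rose was 3 without dKO 3, and 4 with a trended and robust variance or by the mean of probe sets. Srgn, the proteoglycan core that packs these proteases, had 12.16, 12.32 and 12.07 in dKO, against 11.68, 11.62 and 11.67 in control. The groups did not overlap, yet the difference of 0.53 ± 0.16 did not pass (adjusted p = 0.144).

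**Figure D4:**
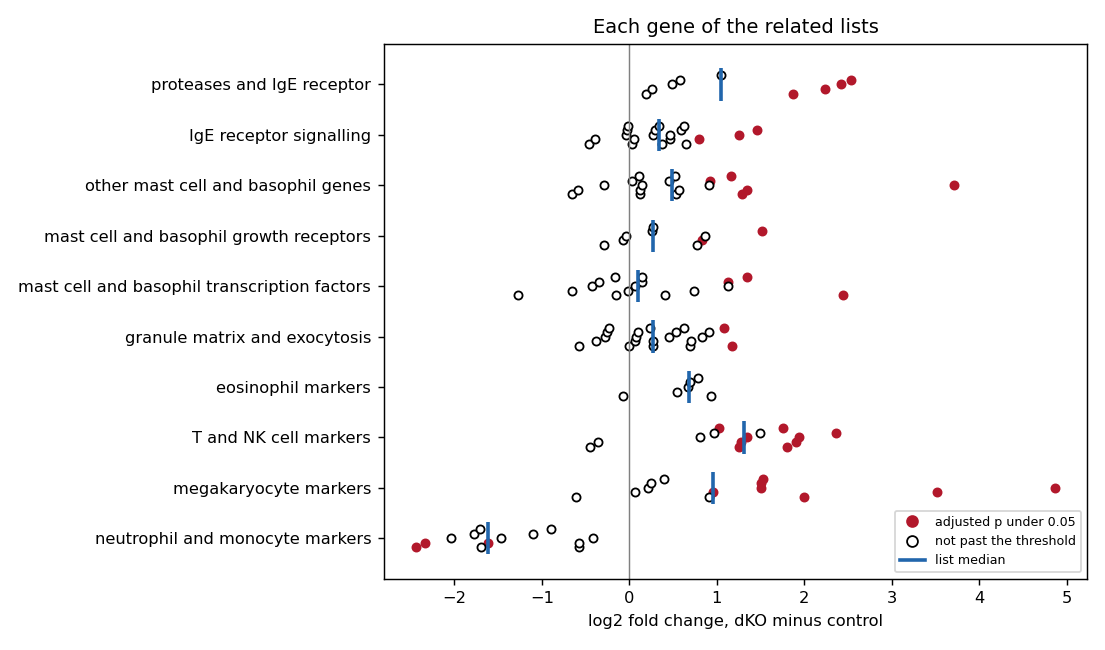
log2 fold change, dKO minus control (horizontal axis), of every measured gene in the proteases and IgE receptor set and in related lists, with filled red points past the threshold and blue bars at list medians. The set described here has a median of 1.05, beside 0.34 for IgE receptor signalling, 0.68 for eosinophil markers and -1.62 for neutrophil and monocyte markers.

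Markers of other blood lineages moved in the same arrays. Eosinophils share progenitors and several genes with basophils. Of their 6 measured markers 0 passed in limma, with a median log2 fold change of 0.68. At an unadjusted p under 0.05, 3 were higher, a count without a share of all genes beside it. The number that rose was 1 without dKO 3, without both pools with Xist signal, with array weights, or by the mean of probe sets. The sum of their linear intensities was 683 to 996 in dKO and 449 to 572 in control. Of these 6 markers, 5 had a positive log2 fold change. Epx, eosinophil peroxidase, stood at 5.86 to 5.95 in dKO and 5.03 to 5.49 in control, dim in both. Prg2 was brighter, at 7.64 to 8.18 in dKO and 6.66 to 7.64 in control (0.93 ± 0.28, limma adjusted p = 0.132). Siglecf stood at 7.93 to 9.37 in dKO and 7.96 to 8.03 in control (0.79 ± 0.34, adjusted p = 0.303). Among the 14 measured genes of T and NK cells, 9 rose and 0 fell, with sums of 5950 to 7120 in dKO and 2670 to 3460 in control, and the number that rose was 1 without control 3, 2 without both pools with Xist signal, and 4 to 8 without the other arrays. Of 13 megakaryocyte markers 7 rose and 0 fell, with sums of 16400 to 19700 in dKO and 5760 to 6530 in control, and 6 to 8 rose without single arrays. Of 13 neutrophil and monocyte markers 0 rose and 3 fell (Irf8, Csf1r and Lyz2), with sums of 2280 to 5780 in dKO and 9820 to 15200 in control. The number that fell was 2 without control 2 or control 3, and 5 with dim probe sets filtered out or with array weights. For the 9 mast cell and basophil genes the sums were 1690 to 3700 in dKO and 573 to 649 in control. The part of these other markers in the rise of the proteases and of Fcer1a was not tested.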

How the data were processed

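The deposited values are log2 intensities, and the submitters' processing notes name RMA as the authors' method; its version is not given in the sources used here. Per the labels' protocols, RNA was extracted with Trizol and amplified in 2 rounds with a Nugen kit. Array medians lay between 5.91 and 5.94. Intensities of dim probe sets are compressed, and 3 arrays per group limit the precision.

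Of 45101 probe sets, 64 controls were left out. Of the remaining 45037, 34945 had 1 annotated symbol, 932 several and 9160 none, and 34741 were matched by gene identifier to RefSeq (GRCm38.p6) to update symbols. The fit used limma 3.58.1 in R 4.3.3 (lmFit, eBayes, group as the only term, two-sided), adjusted over all 45037 probe sets at 0.05. The brightest probe set by mean of the 6 arrays stood for each gene, and all probe sets of the 10 genes are given. The fit was tested on simulated data. Promoter alignments used Biopython 1.88 (global), and figures matplotlib 3.10.9.

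The genes and lists were chosen with earlier results of these data known. From each list up to 4 genes with the smallest p were to be named. Cyp11a1, Fcer1g, Syk, Gab2, Kit, Hdc, Slc18a2, Mitf, Mrgprb1, Enpp3, Il13, Il4, Itgb7, Il3ra, Cebpa, Srgn, Ctsc, Mpo and the locus neighbours beyond that rule were named after their values were seen. Alternatives covered the adjustment over genes, a filter on dim probe sets, 3 scalings, a trended and robust variance, weights per array, the replicate number as a block, the mean of probe sets, probe set class and single arrays left out. Leaving out both pools with Xist signal was added after the data were seen. Replicates are separate pools of mice.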

Additional observations from a re-analysis of the deposited data

How the results depend on the processing

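Of 168 values of the 11 probe sets under the alternatives, 158 kept their direction and side of the threshold, 8 kept direction but lost the call, 2 gained one and 0 changed sign. Cma1 and Mcpt8 kept their calls under each alternative run. With single arrays left out, the log2 fold change ranged from 1.52 to 2.21 for Cpa3, 1.78 to 2.60 for Fcer1a and 0.78 to 1.41 for Ms4a2, the last passing only without dKO 3 (adjusted p = 0.0162) and, among the other settings, with array weights (1.22, adjusted p = 0.0218). Cpa3 (1.70) and Fcer1a (2.24) lost their calls without both pools with Xist signal, a setting chosen after seeing the data. The number of the 9 genes that rose was 2 to 5 without single arrays, 2 without both pools with Xist signal, and 4 or 5 under the other settings. Among all the other lists together, 34 genes rose and 9 fell, beside 2.45% and 2.03% of all genes. These lists include the markers of other lineages, the gate genes and the targeted genes. Myc, a targeted gene, is 1 of the 9 that fell. Without single arrays 14 to 33 rose and 7 to 11 fell, and 17 rose without both pools with Xist signal. Under the other settings 30 (replicate block) to 42 (mean of probe sets) rose, with 39 adjusted over genes or with array weights. The number that fell was 16 with array weights and 14 with the mean of probe sets. Over all probe sets 1622 passed, against 2509 with array weights, 661 without control 2, 691 without control 3, 864 without dKO 1, 918 without control 1, 1060 without dKO 2, and 565 with the Xist pools left out. Fits without an array have fewer samples; the cause of the other shifts was not tested. Deviations from the group means were hardly correlated between same-numbered arrays (r = 0.06, -0.03 and 0.01 for numbers 1, 2 and 3). Differently numbered arrays gave -0.06 to 0.06. Such correlations over all probe sets cannot exclude a pairing, and both pools numbered 1 had Xist signal. Whether the numbers pair the pools is not known. With the replicate number as a block 1252 probe sets passed, 6 neutrophil and monocyte markers fell and 3 erythroid markers rose, and Cma1 (2.53, adjusted p = 0.00814), Mcpt8 (adjusted p = 0.00415), Fcer1a (0.0206) and Cpa3 (0.0207) kept their calls. Dim signal limits the chymase and tryptase genes Mcpt1, Mcpt4, Tpsab1 and Tpsb2.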

Other observations

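Genes that process or restrain granule proteases did not move one way. Of 9 measured, 1 rose and 1 fell, with a median log2 fold change of -0.18. These counts were unstable: 0 to 2 rose over all the alternatives, and 0 (without control 2) to 4 (with array weights) fell, with 2 in each direction without dKO 3. Serpinb9, an inhibitor of granzyme B, had 7.79, 7.56 and 7.05 in dKO, against 6.48, 5.39 and 5.81 in control (1.57 ± 0.31, limma adjusted p = 0.0295), a call lost without dKO 1, dKO 2, control 2 or control 3 (adjusted p up to 0.106). Ctss, a lysosomal cysteine protease of antigen-presenting cells, had 8.90, 9.98 and 9.56 in dKO, against 11.05, 11.55 and 11.34 in control (-1.83 ± 0.28, adjusted p = 0.0115), lost without control 2 (0.0586). Ctsc, which activates the chymases by removing their propeptide, had 9.06, 9.44 and 8.45 in dKO, against 8.88, 9.54 and 9.08 in control, and differed by -0.18 ± 0.28 (adjusted p = 0.834).

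Erythroid markers gave 1 of 9 higher (Ank1, 2.22 ± 0.27) and 1 lower (Tfrc, -1.35 ± 0.17, not passing without both pools with Xist signal). The number of erythroid markers that rose was 3 without dKO 3, adjusted over genes or by the mean of probe sets, 4 with array weights, and 2 with quantile or cyclic loess scaling, a trended and robust variance or dim probe sets filtered out. Lymphoid progenitor and B cell markers gave 0 of 11 higher and 3 lower (Dntt, Flt3 and Rag1), with sums of linear intensity of 1100 to 1620 in dKO and 3460 to 4850 in control.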
